A study of Mus musculus with 4 samples.

Results

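Inflammatory fibroblasts were taken from 4 single-nucleus libraries of mouse hearts as nuclei with the fibroblast profile that also held at least 2 unique molecular identifiers (UMIs, each standing for 1 captured RNA molecule) over Cxcl1, Il6, Ptx3, Tnfaip6 and Has1. The rule first required at least 500 UMIs, at most 5% mitochondrial UMIs, under 3% of UMIs from 7 cardiomyocyte genes (Ttn, Myh6, Ryr2, Tnnt2, Actn2, Mybpc3 and Ctnna3) and 0 UMIs of Pecam1, Cdh5 and Csf1r. It also required at least 2 UMIs over the fibroblast genes Dcn, Pdgfra, Col1a1, Col1a2, Col3a1, Lum, Abca8a, Ddr2 and Fbln1. It gave 133 nuclei among 4316 fibroblasts, from 20609 nuclei within the UMI and mitochondrial limits and 41706 barcodes in all. The libraries gave 12 (cKO 1), 109 (cKO 2), 3 (control 1) and 9 (control 2) of these nuclei, so cKO 2 held 82.0% of them. These 5 genes chose the nuclei, so their levels in the chosen nuclei are given as a description only.

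The groups were Pkp2 conditional knockout hearts (cKO, titled PKP2fl/fl MCM cre/+, 2 libraries) and control hearts (titled MCM cre/+, genotype labelled wt, 2 libraries). All mice were 8 weeks old, had been given tamoxifen and were sampled 2 weeks after it. Each library was a pool of nuclei from 2 whole hearts, stated to be 1 male and 1 female, sorted on a fluorescent nuclear-pore antibody and run on BD Rhapsody, which tags the RNA of single nuclei in microwells. The labels do not spell out MCM; the name is commonly used for a tamoxifen-inducible Cre under the cardiomyocyte promoter of Myh6, so a deletion would be aimed at cardiomyocytes and not at fibroblasts. Pkp2 encodes plakophilin 2, a desmosome protein of cardiomyocytes. The labels give the cell type as cardiomyocyte, while the files also hold the fibroblasts described here.

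The libraries held between 13491201 and 40536562 UMIs in 5947 to 14238 barcodes, of which 48.8% to 53.8% were above the mitochondrial limit. In nuclei with at least 3% cardiomyocyte UMIs, Pkp2 stood at 606 and 573 CPM (counts per 1000000 UMIs) in cKO and 545 and 522 CPM in control libraries. The labels do not say which exons were targeted, so this gene total does not check the genotype, and cKO stands for the label. Esr1, part of which is carried by inducible Cre fusions of this kind, stood in the same nuclei at 3622 and 3293 CPM in cKO and 88.0 and 67.6 CPM in control libraries, although both titles name the Cre. Xist, the RNA that coats the inactive X in female nuclei, counted 9 and 15 UMIs in cKO and 6 and 12 in control libraries over all nuclei within the limits, against 5467 and 10878 UMIs of 4 Y-linked genes in cKO and 3706 and 8726 in control libraries, so no library matched the stated 1 female heart. Genotype, Esr1 level and pool cannot be told apart in this design. Over all pairs of libraries 4 barcodes were shared, none of them in nuclei within the limits.

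Fibroblasts of the heart produce and maintain the collagen matrix, and after injury they can also release cytokines and chemokines. Interleukin 1, tumour necrosis factor and ligands of innate receptors act on them through NF-kB, a family of transcription factors held inactive by inhibitor proteins that are themselves NF-kB targets. Interleukin 6 acts back on cells through JAK kinases and STAT3, and immediate early genes such as Fos and Egr1 are transcribed within minutes of a stimulus, before new protein is made.

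The 5 genes encode secreted proteins or an enzyme that builds a secreted polymer. Cxcl1 (GRCm38 chromosome 5, 90891241 to 90893115) encodes a chemokine that attracts neutrophils, and Il6 (chromosome 5, 30013114 to 30019981) encodes interleukin 6. Ptx3 (chromosome 3, 66219910 to 66225805) encodes pentraxin 3, a soluble pattern recognition protein. Tnfaip6 (chromosome 2, 52038009 to 52056686) encodes TSG-6, which binds hyaluronan, and Has1 (chromosome 17, 17843323 to 17855205, minus strand) encodes a hyaluronan synthase. These spans are those of the GENCODE annotation. The 250 bases before each gene's RefSeq start are printed because the 5 genes define these nuclei. The RefSeq start is that of the GENCODE span for Il6 only, and the windows of Cxcl1, Tnfaip6 and Has1 end inside that span. The sequences are of GRCm38.p6, 5′ to 3′ on the gene's strand, at chr5:90890995-90891244 (Cxcl1), chr5:30012864-30013113 (Il6), chr3:66219637-66219886 (Ptx3), chr2:52037863-52038112 (Tnfaip6) and chr17:17855189-17855438 (Has1, minus strand). Capitals mark matches to the motifs described after them.
Cxcl1: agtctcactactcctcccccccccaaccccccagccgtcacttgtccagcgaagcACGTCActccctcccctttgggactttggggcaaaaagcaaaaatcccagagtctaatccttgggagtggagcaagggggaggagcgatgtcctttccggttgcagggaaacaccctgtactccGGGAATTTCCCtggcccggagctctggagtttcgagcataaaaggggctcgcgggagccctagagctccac
Il6: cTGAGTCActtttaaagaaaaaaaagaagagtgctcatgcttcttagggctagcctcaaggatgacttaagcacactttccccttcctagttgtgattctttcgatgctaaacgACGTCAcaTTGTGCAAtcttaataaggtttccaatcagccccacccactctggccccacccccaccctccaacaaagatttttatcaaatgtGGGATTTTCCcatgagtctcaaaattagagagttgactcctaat
Ptx3: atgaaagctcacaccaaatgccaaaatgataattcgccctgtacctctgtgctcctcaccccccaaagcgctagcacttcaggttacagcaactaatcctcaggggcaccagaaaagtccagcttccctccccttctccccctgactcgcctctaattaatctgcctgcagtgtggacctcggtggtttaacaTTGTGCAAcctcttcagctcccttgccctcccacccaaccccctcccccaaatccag
Tnfaip6: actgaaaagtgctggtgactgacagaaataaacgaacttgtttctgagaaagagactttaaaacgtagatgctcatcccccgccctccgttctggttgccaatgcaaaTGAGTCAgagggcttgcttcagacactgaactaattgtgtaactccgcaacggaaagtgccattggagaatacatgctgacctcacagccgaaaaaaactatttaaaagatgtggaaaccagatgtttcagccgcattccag
Has1: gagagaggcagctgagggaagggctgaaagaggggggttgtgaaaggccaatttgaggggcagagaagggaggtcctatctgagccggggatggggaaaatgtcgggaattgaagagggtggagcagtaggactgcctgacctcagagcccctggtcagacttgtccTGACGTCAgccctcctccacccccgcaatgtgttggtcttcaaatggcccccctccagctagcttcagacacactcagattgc

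Both strands were searched for 4 motifs, which were chosen with the sequences in view. The NF-kB consensus matched in Cxcl1, from base 71 to base 62 before the RefSeq start on the gene's strand and 1 base nearer on the other, and in Il6, from base 44 to base 35; 7.25% of 32841 promoter windows of the same length held a match. The C/EBP motif TTGNGCAA matched in Il6 and Ptx3 and in 2.61% of all windows. The cyclic AMP element core ACGTCA matched in Cxcl1, Il6 and Has1 and in 6.47% of windows, and the AP-1 motif TGANTCA in Il6 and Tnfaip6 and in 6.75%. In Has1 the matches on both strands overlap. A match is a description of the letters and no evidence of binding.

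The rule asked for fibroblast genes in both sets of nuclei, so the levels of these genes are a description. The 9 fibroblast genes together stood at 13823 and 7569 CPM in the inflammatory fibroblasts of cKO 1 and cKO 2, against 9890 and 8583 CPM in the other fibroblasts of those libraries. In control 1 and control 2 they stood at 11425 and 5026 CPM, against 7328 and 6202 CPM. Among the 12 inflammatory fibroblasts of cKO 1, 1 nucleus held 41 of the 64 Col1a1 UMIs. The highest counts in 1 nucleus there were 42 of 87 UMIs for Col1a2 and 46 of 84 for Col3a1. Dcn, the collagen-binding proteoglycan decorin, was detected in 87 of 109 inflammatory fibroblasts of cKO 2, and the receptor gene Pdgfra in 43. Abca8a, a transporter gene of the same 9, stood at 1545 and 702 CPM in inflammatory fibroblasts of cKO 1 and cKO 2, against 1273 and 1353 CPM in the others. In control 1 and control 2 it stood at 1785 and 1436 CPM, against 2871 and 2480 CPM. The 9 genes did not move together. Ddr2 stood at 459 and 491 CPM in cKO 1 and cKO 2, against 231 and 299 CPM. In cKO 2, Lum was higher (119 against 89.4 CPM) and Dcn (1858 against 1888 CPM) and Pdgfra (315 against 320 CPM) were close. Col1a1, Col1a2, Col3a1 and Fbln1 were lower there. Median depth was similar in both sets of a library, at 1466 against 1426 UMIs in cKO 1, 1965 against 2017 in cKO 2, 976 against 1070 in control 1 and 1649 against 1562 in control 2.

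The 5 genes were not spread evenly over the chosen nuclei, and the inflammatory label rested on cKO 2. At least 2 of the 5 genes were detected in 3 of 12 nuclei of cKO 1 and 63 of 109 of cKO 2, but in 0 of 3 of control 1 and 0 of 9 of control 2. Tnfaip6 alone brought in 6 of 12 nuclei in cKO 1 and 18 of 109 in cKO 2, against 2 of 3 in control 1 and 7 of 9 in control 2. Most control nuclei were thus chosen by the hyaluronan-binding protein gene and by no cytokine gene.

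Within cKO 2, Cxcl1 was detected in 71 of the 109 nuclei, Tnfaip6 in 58, Il6 in 40 and Ptx3 and Has1 in 26 each. Cxcl1 and Il6 were detected together in 32 nuclei, which is most of the Il6 nuclei, and Cxcl1 and Ptx3 in 22 of the 26 Ptx3 nuclei. The choice of nuclei by the sum of these 5 genes favours joint detection, so these counts are a description. All 5 genes were detected in 3 nuclei. The summed UMIs of the 5 genes reached 51 in 1 nucleus of cKO 2, against a highest value of 7 in cKO 1, 2 in control 1 and 3 in control 2. In cKO 2, 36 nuclei lay at the threshold of 2 UMIs, 21 had 3 or 4, 25 had 5 to 9 and 27 had 10 or more. Just outside the threshold, with 1 UMI, lay 53 fibroblasts of cKO 1, 136 of cKO 2, 25 of control 1 and 58 of control 2.

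Inflammatory fibroblasts made up 1.63% of fibroblasts in cKO 1 (95% exact binomial interval 0.845% to 2.83%) and 6.89% in cKO 2 (5.69% to 8.25%). They made up 0.536% in control 1 (0.111% to 1.56%) and 0.626% in control 2 (0.287% to 1.18%). These intervals cover counting error only. Both cKO shares were above both control shares, but the interval of cKO 1 overlaps those of both controls and the interval of cKO 2 overlaps none. The mean was 4.26% ± 3.72 in cKO and 0.581% ± 0.0637 in control libraries (SD, n = 2 each), a log2 ratio of 2.87. The two-sided exact permutation test over libraries gave p = 0.333, the smallest that 2 against 2 libraries allow. With nuclei of up to 20% mitochondrial UMIs the shares were 3.26% in cKO 1 (49 nuclei, 2.42% to 4.29%) and 7.06% in cKO 2 (207 nuclei, 6.16% to 8.05%), against 0.696% in control 1 (8 nuclei, 0.301% to 1.37%) and 1.02% in control 2 (28 nuclei, 0.676% to 1.47%), and neither cKO interval overlapped a control interval. At the 5% limit the cKO 1 interval overlapped both control intervals with at least 3 UMIs over the 5 genes (0.221% to 1.58%). The same held with at least 1000 UMIs per nucleus (0.697% to 2.87%) and with 1000 UMIs drawn from each nucleus (0.275% to 1.96%). At 1% mitochondrial UMIs cKO 1 gave 0 of 58 fibroblasts and cKO 2 12 of 186, against 0 of 22 in control 1 and 1 of 130 in control 2. Without cKO 2 the log2 ratio at the 5% limit was 1.49, and without cKO 1 it was 3.57.

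**Figure D1:**
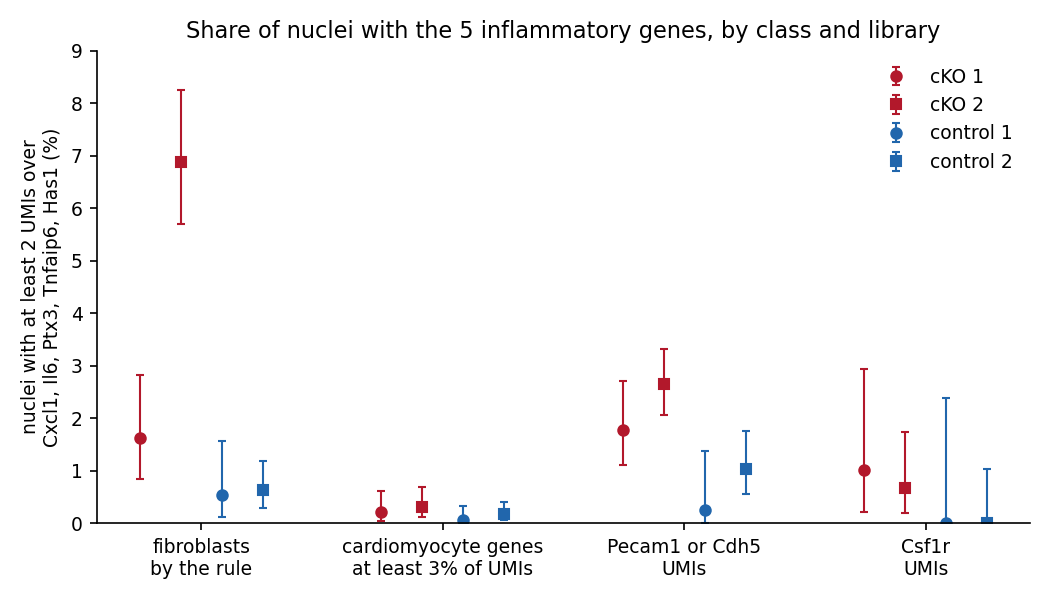
Percent of nuclei with at least 2 UMIs over the 5 genes, by class of nuclei (x axis) and library (colour and marker), with exact 95% binomial intervals that cover counting error only. Fibroblasts of cKO 2 (6.89%) stand above the fibroblasts of the other 3 libraries (0.536% to 1.63%) and above every other class shown.

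With all UMIs of each nucleus counted, the fibroblast share of cKO 2 was above that of every other class of nuclei. In cKO 1 and control 2 the fibroblast share was then not above that of endothelial nuclei. Nuclei with at least 3% cardiomyocyte UMIs held at least 2 such UMIs in 0.213% (cKO 1), 0.314% (cKO 2), 0.0599% (control 1) and 0.170% (control 2) of cases. Their medians were deeper, at 4337, 5258, 3244 and 4028 UMIs. The source of the UMIs of the 5 genes in these nuclei was not tested. The intervals of the 2 control fibroblast shares overlap those of these deeper nuclei. Per 1000000 UMIs, the 5 genes together stood at 70.2 (cKO 1), 267 (cKO 2), 45.4 (control 1) and 31.6 CPM (control 2) in all fibroblasts. In the cardiomyocyte nuclei they stood at 3.73, 5.71, 4.33 and 4.88 CPM, so every fibroblast level was above the cardiomyocyte level. Nuclei with Pecam1 or Cdh5 UMIs, which mark endothelium, gave 1.78%, 2.64%, 0.248% and 1.03% in the same order. Nuclei with Csf1r UMIs, which mark macrophages, gave 1.01% (cKO 1) and 0.679% (cKO 2), against 0 of 153 nuclei in control 1 and 0 of 353 in control 2, which allow shares of up to 2.38% and 1.04% by the exact interval. Thinned to 1000 UMIs per nucleus, which left out 144, 61, 227 and 105 shallower fibroblasts, the fibroblast shares were 0.845%, 4.47%, 0.300% and 0.300%. Cardiomyocyte nuclei thinned in the same way gave 0 of 1276 nuclei (cKO 1, up to 0.289%), 0.169% (cKO 2), 0 of 1604 (control 1, up to 0.230%) and 0.0349% (control 2). Thinned endothelial nuclei gave 0.5% (cKO 1), 1.40% (cKO 2), 0.370% (control 1) and 0.439% (control 2). Thinned fibroblast shares were thus above the endothelial ones in cKO 1 and cKO 2 only, and the intervals of these 2 classes overlapped in every library but cKO 2. Nuclei of cKO 2 in none of these classes, thinned in the same way, gave 2.99% (1.64% to 4.96%). That interval overlaps the one of thinned cKO 2 fibroblasts (3.49% to 5.63%).

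All fibroblasts of the rule, chosen without the 5 genes, allowed these genes to be compared between the groups. Il6, Ptx3, Has1 and Cxcl1 were called higher in cKO fibroblasts and Tnfaip6 was not. Over 12852 genes tested with edgeR's quasi-likelihood test (Benjamini-Hochberg adjusted p under 0.05), 220 genes were called higher (1.71%) and 135 lower (1.05%). Fewer cells of a type and less RNA per cell cannot be told apart in such summed counts.

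Il6 stood at 7.02 and 49.2 CPM in cKO 1 and cKO 2 fibroblasts, against 2.93 and 0.811 CPM in control 1 and control 2 (log2 fold change 4.47, SE 0.92, adjusted p = 0.0176). Ptx3 stood at 5.46 and 28.4 CPM in cKO, against 0 and 1.22 CPM in control fibroblasts (4.20, SE 0.91, adjusted p = 0.0234). Has1 stood at 7.02 and 25.6 CPM in cKO, against 2.93 and 0.811 CPM in control fibroblasts (3.67, SE 0.80, adjusted p = 0.0238). For each of these genes cKO 2 was the highest library, cKO 1 lay well under it and the groups did not overlap. The counts outside cKO 2 were few. Il6 and Has1 each rested on 9 UMIs in cKO 1 and 2 in each control library. Ptx3 rested on 7 UMIs in cKO 1, against 0 and 3 in control 1 and control 2. In cKO 1, 1 nucleus held 4 of the 9 Il6 UMIs, and 1 held 5 of the 9 Has1 UMIs.

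Cxcl1 stood at 17.9 and 81.8 CPM in cKO, against 11.7 and 7.30 CPM in control fibroblasts (2.60, SE 0.59, adjusted p = 0.0293). Tnfaip6 stood at 32.8 and 81.8 CPM in cKO, against 27.8 and 21.5 CPM in control fibroblasts (1.31, SE 0.39, adjusted p = 0.111). Cxcl1 and Tnfaip6 in cKO 1 lay close above control 1, while cKO 2 stood apart.

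The calls depended on cKO 2 and control 2. Without cKO 2 the log2 fold change of Cxcl1 was 0.95 (adjusted p = 0.572) and that of Tnfaip6 0.37 (adjusted p = 0.830), and Il6, Ptx3 and Has1 were too low to be tested. Without control 2 none of the 5 passed, at log2 fold changes of 2.20 for Cxcl1 (adjusted p = 0.269), 3.40 for Il6 (0.240), 1.12 for Tnfaip6 (0.494) and 2.61 for Has1 (0.374), while Ptx3 (adjusted p = 0.138) was at 0 in the remaining control library. The counts of all genes were then 53 higher and 29 lower. Without cKO 1 all 5 passed, with log2 fold changes of 3.24 for Cxcl1, 5.16 for Il6, 4.82 for Ptx3, 1.78 for Tnfaip6 and 4.22 for Has1, and without control 1 all 5 passed at 2.81, 5.12, 3.84, 1.42 and 4.32 in the same order. In these fits the lone library of a group is taken to vary like the other group. With DESeq2, Ptx3 and Has1 passed, and Cxcl1 (2.41, adjusted p = 0.496) and Il6 (4.09, adjusted p = 0.265) did not.

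**Figure D2:**
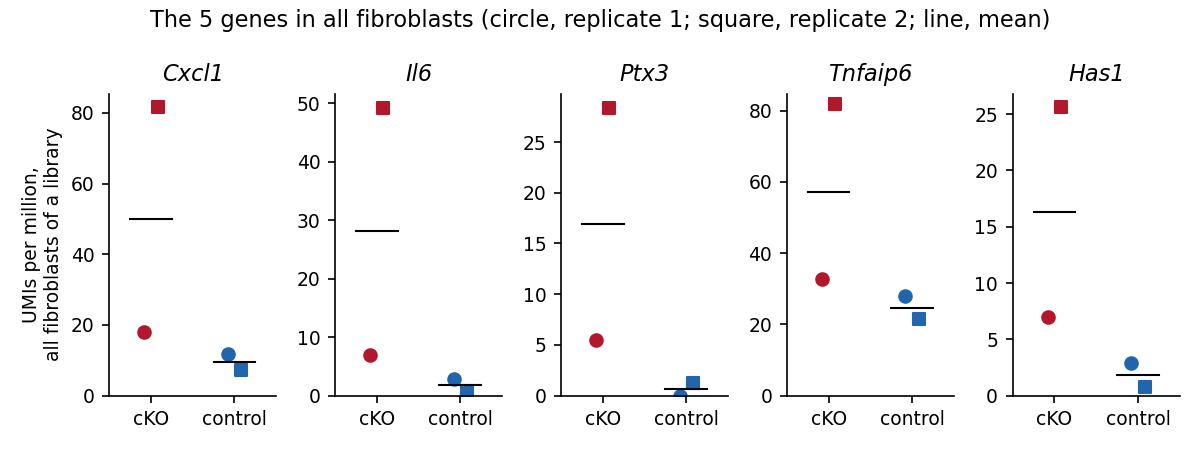
CPM (y axis, from 0, own scale in each panel) of the 5 genes summed over all fibroblasts of a library, for cKO (red) and control (blue). Circles are replicate 1, squares replicate 2 and lines the group mean; cKO 2 is the highest library in every panel, at 81.8 CPM for Cxcl1 and 49.2 CPM for Il6.

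Inflammatory fibroblasts were then compared with the other fibroblasts of the same library over the genes that the rule did not use. Some immediate early genes, NF-kB targets, chemokines other than Cxcl1, prostaglandin and protease genes and both metallothioneins were called higher in inflammatory fibroblasts. Collagen-associated activation genes and genes of resting fibroblasts mostly did not pass. The test used cKO 1 and cKO 2, which had at least 10 inflammatory fibroblasts each, with the library as a block. Of 9844 genes, 69 were called higher (0.701%) and 3 lower (0.0305%), with 427 at an unadjusted p under 0.05. The median log2 fold change of all genes tested was -0.11, from which changes are read.

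Of the 69 genes, 55 were higher in both libraries, but 10 had no UMI and 31 had 1 to 3 UMIs in the 12 nuclei of cKO 1, where 1 UMI is worth 41.8 CPM. The rises therefore describe mainly cKO 2. With 1 residual degree of freedom the spread was shared over all genes, DESeq2 called 34 genes higher, and a fit that adds the 3 and 9 control nuclei called 3. The 3 were Nr4a1, Mt2 and Ccl7. That fit tested 7532 genes and left Nr4a2, Nr4a3, Ptgs2, Cxcl5, Ch25h, Trib1 and Fos untested. The 3 and 9 nuclei of control 1 and control 2 totalled 2801 and 16713 UMIs, too few for a test between genotypes, and values for them are given only as levels.

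**Figure D3:**
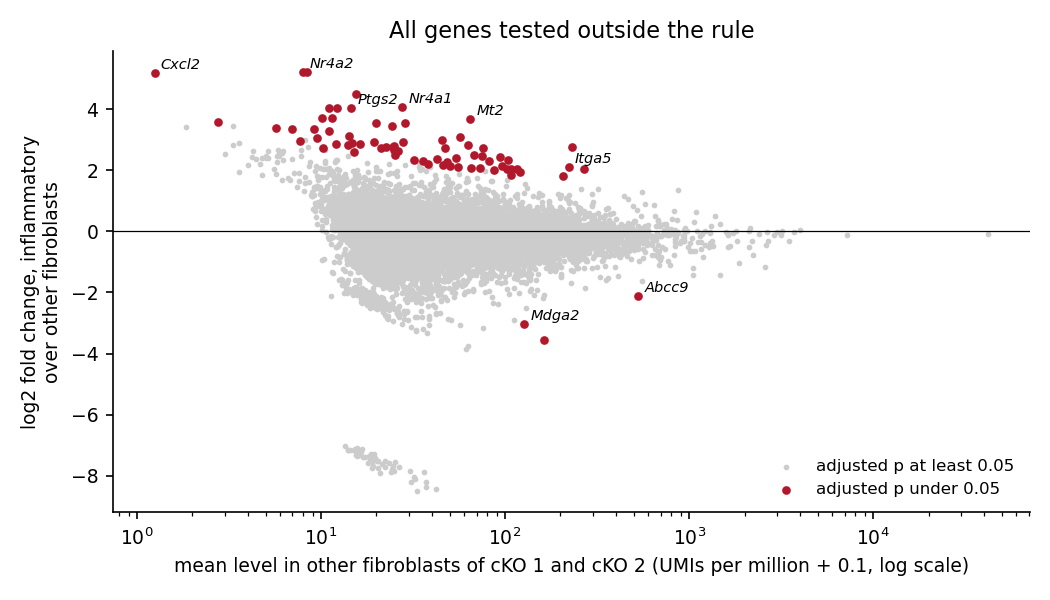
Log2 fold change of inflammatory over other fibroblasts (y axis) against the mean level in other fibroblasts of cKO 1 and cKO 2 (x axis, log scale), for 9844 genes, of which 69 red points lie above 0 and 3 below. The separate group of 54 grey points at the bottom holds genes with no UMI in the inflammatory fibroblasts, whose fitted values are no measure of size.

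Immediate early genes had the highest median of the lists. Of 27 on the list, 22 were tested, 12 were called higher and none lower, and their median log2 fold change was 2.62. Nr4a2 stood at 125 CPM in inflammatory against 7.95 CPM in other fibroblasts of cKO 1, and at 422 against 7.80 CPM in cKO 2 (log2 fold change 5.23, SE 0.70, edgeR adjusted p = 2.47e-10). Nr4a3 stood in cKO 1 at 125 against 3.98 CPM and in cKO 2 at 487 against 12.6 CPM (5.20, SE 0.69, adjusted p = 2.47e-10). Nr4a1 stood in cKO 1 at 376 against 32.6 CPM and in cKO 2 at 526 against 22.5 CPM (4.07, SE 0.57, adjusted p = 2.05e-09). These 3 genes encode orphan nuclear receptors of 1 family. In cKO 1, the level of Nr4a3 rested on 3 UMIs in 1 nucleus.

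Nr4a1 was detected in 5 of 12 inflammatory fibroblasts of cKO 1 and 46 of 109 of cKO 2, against 4.01% and 3.67% of the other fibroblasts. Nr4a2 was found in 25 of the 109 nuclei of cKO 2, and 1 of them held 43 of the 110 UMIs. In the control libraries, Nr4a1 gave 0 UMIs in the 3 nuclei of control 1 and 1 in the 9 of control 2, and Nr4a2 and Nr4a3 gave none.

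Egr1, a zinc finger transcription factor, stood in cKO 1 at 167 against 53.3 CPM and in cKO 2 at 894 against 60.6 CPM (3.10, SE 0.56, adjusted p = 2.27e-05). It was detected in 71 of the 109 inflammatory fibroblasts of cKO 2, against 7.13% of the others. Junb, an AP-1 subunit, had a log2 fold change of 2.97, and its partner gene Fos, in cKO 1 at 125 against 4.77 CPM and in cKO 2 at 72.9 against 8.995 CPM, one of 3.34 (SE 0.75, adjusted p = 0.00274). The other genes called higher were Egr2, Egr3, Fosl2, Btg2, Myc and Zfp36, the last encoding a protein that destabilises cytokine messenger RNAs. Jun, at 0 and 84.4 CPM in inflammatory and 58.8 and 69.0 CPM in other fibroblasts, had a log2 fold change of 0.05 and did not pass.

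**Figure D4:**
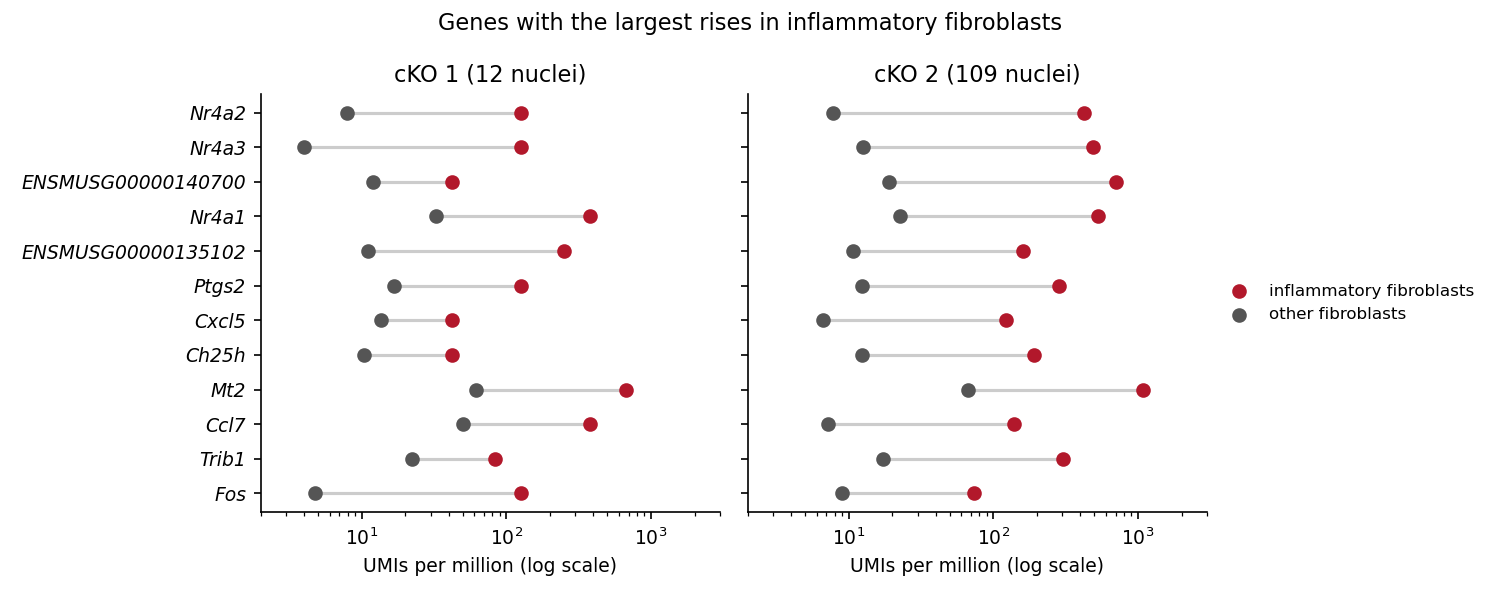
CPM (x axis, log scale) in inflammatory fibroblasts (red) and other fibroblasts (grey) of cKO 1 (left) and cKO 2 (right), for the 12 genes with the largest rises under the naming rule. The naming rule took only genes higher in both libraries, so each red point lies right of its grey point by that choice; Mt2 is highest at 668 CPM in cKO 1 and 1075 CPM in cKO 2.

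Of 37 chemokine and cytokine genes, which leave out Cxcl1 and Il6, 12 were tested, 4 were called higher and none lower, with a median of 1.04. The 4 were Cxcl5, Cxcl2, Ccl7 and Ccl2. Cxcl5, like Cxcl1 a ligand of the neutrophil receptor CXCR2, stood in cKO 1 at 41.8 against 13.5 CPM and in cKO 2 at 123 against 6.60 CPM (3.70, SE 0.72, adjusted p = 0.000155). Cxcl2, another such ligand, gave 1 UMI in inflammatory fibroblasts of cKO 1 and 14 in cKO 2 (5.19, SE 1.06, adjusted p = 0.000537).

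Ccl7, a monocyte chemokine, stood in cKO 1 at 376 against 50.1 CPM and in cKO 2 at 138 against 7.20 CPM (3.55, SE 0.59, adjusted p = 1.71e-06). Ccl2, a related monocyte chemokine, stood in cKO 1 at 0 against 39.8 CPM and in cKO 2 at 246 against 8.70 CPM (3.46, SE 0.67, adjusted p = 0.000153). The rise of Ccl2 was thus seen in cKO 2 only, where its ratio was 28.3 (95% counting interval 18.0 to 45.4). Il1b and Tnf gave no UMI in the inflammatory fibroblasts of any library. Il33, an alarmin, stood at 0 and 184 CPM in inflammatory and 41.3 and 29.4 CPM in other fibroblasts (2.05, adjusted p = 0.113).

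Of 37 genes of the NF-kB pathway and its feedback targets, 31 were tested, 6 were called higher and none lower, and the median was 1.28. Nfkbiz, which encodes an atypical inhibitor that also acts as a coactivator of Il6, stood in cKO 1 at 334 against 119 CPM and in cKO 2 at 480 against 84.6 CPM (2.04, SE 0.52, adjusted p = 0.0145). Birc3, an inhibitor of apoptosis, stood in cKO 1 at 209 against 83.5 CPM and in cKO 2 at 722 against 131 CPM (2.03, SE 0.52, adjusted p = 0.0170). Tnfaip2 (2.47), the inhibitor relative Bcl3 (2.87), the subunit gene Nfkb2 (2.61) and the adhesion molecule gene Icam1 (2.09) were also called higher.

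Bcl3 had no UMI in inflammatory fibroblasts of cKO 1, and Icam1 stood there at 83.5 against 73.1 CPM, a ratio of 1.14 (counting interval 0.136 to 4.24), against 7.09 (5.70 to 8.79) in cKO 2. Nfkb1, the most abundant of these genes in cKO 2, stood in cKO 1 at 668 against 506 CPM and in cKO 2 at 2579 against 601 CPM (1.28, SE 0.42, adjusted p = 0.235). Its counting ratio was 1.32 (0.751 to 2.16) in cKO 1 and 4.29 (3.93 to 4.69) in cKO 2. The inhibitor gene Nfkbia (1.64, adjusted p = 0.260) and the interleukin 1 receptor gene Il1r1 (1.23, adjusted p = 0.422) did not pass.

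Among 23 genes of interleukin 6 family receptors and JAK-STAT3 signalling, 21 were tested, 1 was called higher and none lower, with a median of 0.24. The gene was Socs3, a feedback inhibitor of this pathway, in cKO 1 at 83.5 against 10.3 CPM and in cKO 2 at 69.1 against 8.40 CPM (3.04, SE 0.75, adjusted p = 0.0112). Stat3 stood in cKO 1 at 710 against 310 CPM and in cKO 2 at 1071 against 333 CPM (1.38, SE 0.44, adjusted p = 0.159). The shared receptor gene Il6st had a log2 fold change of 0.63 and did not pass.

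Hyaluronan genes other than Has1 and Tnfaip6 numbered 13, of which 8 were tested, 1 was called higher and none lower, with a median of 1.25. Ugdh, which makes the UDP-glucuronate used to build hyaluronan, stood in cKO 1 at 292 against 105 CPM and in cKO 2 at 802 against 102 CPM (2.35, SE 0.51, adjusted p = 0.00177). Has2, the main hyaluronan synthase of fibroblasts, stood in cKO 1 at 167 against 11.9 CPM and in cKO 2 at 42.2 against 8.995 CPM, on 4 and 11 UMIs (2.65, SE 0.80, adjusted p = 0.110).

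Of 25 prostaglandin and protease genes, 21 were tested, 5 were called higher and none lower, with a median of 0.78. Ptgs2, the inducible cyclooxygenase, stood in cKO 1 at 125 against 16.7 CPM and in cKO 2 at 284 against 12.3 CPM (4.04, SE 0.65, adjusted p = 7.68e-07), in cKO 1 on 3 UMIs in 1 nucleus. Ch25h, which makes 25-hydroxycholesterol, stood in cKO 1 at 41.8 against 10.3 CPM and in cKO 2 at 192 against 12.3 CPM (3.70, SE 0.64, adjusted p = 8.04e-06). Adamts4 (2.86) and the metalloproteinase inhibitor gene Timp1 (2.26) were also called.

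Of 11 heat shock and metallothionein genes, 8 were tested, 2 were called higher and none lower, with a median of 0.80. Both were metallothioneins, which bind zinc and copper. Mt2 stood in cKO 1 at 668 against 62.0 CPM and in cKO 2 at 1075 against 66.9 CPM (3.67, SE 0.49, adjusted p = 2.47e-10) and was detected in 5 of 12 and 62 of 109 inflammatory fibroblasts, against 7.60% and 8.96% of the others. Mt1 had a log2 fold change of 2.31. Trib1, a pseudokinase gene on no list, stood in cKO 1 at 83.5 against 22.3 CPM and in cKO 2 at 303 against 17.4 CPM (3.54, SE 0.65, adjusted p = 3.63e-05).

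The naming rule also gave 2 rises without a gene name, ENSMUSG00000140700 (4.51, adjusted p = 3.88e-08), which rested on 1 UMI in cKO 1 and 184 in cKO 2, and ENSMUSG00000135102 (4.04, adjusted p = 6.12e-08), with 6 and 42. With DESeq2, ENSMUSG00000140700 (adjusted p = 0.951) and Cxcl5 (adjusted p = 0.122) did not pass.

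Most genes of matrix-producing fibroblasts did not pass between the 2 sets. Of 32 activation and matrix genes 29 were tested, 2 were called higher and none lower, with 6 at an unadjusted p under 0.05 and a median of 0.39. The 2 were the matricellular genes Thbs1 (2.43, adjusted p = 0.00435) and Tnc (2.09, adjusted p = 0.0238). Thbs1 stood in cKO 1 at 125 against 118 CPM and in cKO 2 at 871 against 69.9 CPM, so its rise was seen in cKO 2. Postn, the periostin gene that marks activated fibroblasts, stood in cKO 1 at 2631 against 999 CPM and in cKO 2 at 484 against 611 CPM (0.39, adjusted p = 1.00), opposite in direction in the 2 libraries. In cKO 1, 1 of the 12 inflammatory fibroblasts held 7331 of their 23945 UMIs. How the Postn UMIs were spread over these nuclei was not tested.

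Between the genotypes, activation and matrix genes differed widely. Over all fibroblasts, 22 of 30 tested were higher in cKO and none lower, with a median of 2.49 beside 0.01 for all genes. Their sum was 13406 and 9131 CPM in inflammatory fibroblasts of cKO 1 and cKO 2, against 8818 and 7667 CPM in the other fibroblasts. In inflammatory fibroblasts of control 1 and control 2 it was 1071 and 2872 CPM, against 2723 and 2534 CPM in the others. The control values of inflammatory fibroblasts rest on 3 and 48 UMIs, and that of cKO 1 on the same 12 nuclei, 1 of which held 7331 of their 23945 UMIs.

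Of 24 resting fibroblast genes 20 were tested and none passed, with 1 at an unadjusted p under 0.05 and a median of -0.12. None of 10 interferon-stimulated genes tested passed, with 0 at an unadjusted p under 0.05 and a median of 0.02. Of 10 glucocorticoid response genes tested, 1 was called higher, the epidermal growth factor receptor inhibitor gene Errfi1 (1.82, adjusted p = 0.0238), with a list median of -0.11.

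The other lists were also counted between the genotypes over all fibroblasts, inflammatory ones included. Of 23 immediate early genes tested, 10 were higher in cKO fibroblasts and none lower (median 1.10), Nr4a2 (3.67), Egr1 (1.94) and Nr4a1 (1.46) among them. For Nr4a2, 1 inflammatory fibroblast of cKO 2 held 43 UMIs. Values without each library are not given for the list genes. Of 33 NF-kB genes tested, Nfkbiz (1.13) and Icam1 (1.11) were higher and none lower. Of 15 chemokine and cytokine genes tested, 3 were higher, Cxcl5 (2.69), Cx3cl1 and the epidermal growth factor family gene Ereg (4.11), and Il34 was lower. Of 22 prostaglandin and protease genes tested, 5 were higher, Ptgs2 (3.99), Ch25h (4.20), Timp1 (3.25) and Serpina3n among them, and none lower. Of 9 heat shock and metallothionein genes tested, Mt2 (2.39) and the zinc transporter gene Slc39a14 were higher and none lower. Of 9 hyaluronan genes tested, Cd44 and Vcan were higher, and of 23 interleukin 6 signalling genes only Lifr, which was lower, was called.

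Resting fibroblast genes went both ways between the genotypes, with 3 of 24 tested higher in cKO fibroblasts and 8 lower. Of 10 glucocorticoid response genes tested, Zbtb16 was lower, and of 15 interferon-stimulated genes none was called by edgeR, with 1 at an unadjusted p under 0.05.

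In inflammatory against other fibroblasts of cKO 1 and cKO 2, 3 genes were called lower. On simulated data this fit recovered 28% of 4-fold falls and 83% of 4-fold rises. The simulated counts had a smaller spread than the fit found in the data, so these shares are no estimate for it. The numbers of genes called higher and lower are therefore not set against each other. ENSMUSG00000140548 had 0 and 4 UMIs in inflammatory fibroblasts of cKO 1 and cKO 2, or 0 and 15.4 CPM, against 157 and 171 CPM in the others (-3.57, SE 0.83, adjusted p = 0.00492). Mdga2, an adhesion protein gene, stood in cKO 1 at 41.8 against 77.9 CPM and in cKO 2 at 15.4 against 176 CPM (-3.03, SE 0.83, adjusted p = 0.0407). Abcc9, a potassium channel subunit gene and pericyte marker, stood in cKO 1 at 0 against 462 CPM and in cKO 2 at 192 against 598 CPM (-2.13, SE 0.52, adjusted p = 0.0112). With DESeq2 none of the 3 passed.

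The fall of Abcc9 went with the mural markers. Other fibroblasts held 1238 and 1379 CPM of 8 mural markers in cKO 1 and cKO 2, while inflammatory fibroblasts held 0 and 472 CPM, with 8 and 1 of the 8 at 0. Without nuclei that held UMIs of the 7 other mural markers, which removed 204 fibroblasts of cKO 1 and 475 of cKO 2, 25 of them inflammatory, Abcc9 had a log2 fold change of -0.24 (adjusted p = 0.999). That fit, added after seeing the data, called 72 genes higher, 61 of them among the 69, and 3 genes lower, 0 of them among the 3. ENSMUSG00000140548 and Mdga2 were not among the 8517 genes it tested, so it gives no result for their falls.

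Markers of immune cells were low in inflammatory fibroblasts. The 10 macrophage markers summed to 167 and 150 CPM in cKO 1 and cKO 2, with 8 and 2 of the 10 at 0, against 620 and 355 CPM in the other fibroblasts, and 0 of 8 tested passed. The 8 neutrophil markers summed to 0 and 7.68 CPM, with 8 and 6 at 0, against 37.4 and 21.0 CPM, and were too low to test. The 8 lymphocyte markers summed to 0 and 11.5 CPM, with 8 and 5 at 0, against 30.2 and 22.5 CPM. In the 3 and 9 inflammatory fibroblasts of the controls, macrophage, neutrophil and lymphocyte markers gave no UMI.

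The other marker lists gave no call. The 10 cardiomyocyte markers outside the rule summed to 2046 and 2100 CPM in inflammatory fibroblasts of cKO 1 and cKO 2, with 1 and 0 of the 10 at 0, against 2962 and 2193 CPM in the others. The 10 endothelial markers outside the rule summed to 543 and 1240 CPM, with 4 and 0 at 0, against 1478 and 1172 CPM. The 6 Schwann markers summed to 251 and 545 CPM, with 4 at 0 in each, against 469 and 604 CPM. The 10 epicardial and mesothelial markers summed to 0 and 57.6 CPM, with 10 and 5 at 0, against 32.6 and 84.3 CPM. In control 1 they stood at 0 against 69.2 CPM. In control 2 they stood higher, at 898 CPM on 15 UMIs in the 9 inflammatory fibroblasts against 32.7 CPM in the others, with 6 of the 10 at 0. How these 15 UMIs were spread over the 9 nuclei and their part in that library's share were not tested.

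In fibroblasts of cKO 2, some lists were graded with the UMIs of the 5 genes. The nuclei were ordered into nuclei with 0 UMIs (1337 nuclei), 1 (136), 2 (36), 3 or 4 (21), 5 to 9 (25) and 10 or more (27), with median depths between 1858 and 2270 UMIs. The NF-kB list stood at 2382, 3465, 3733, 5961, 8129 and 18930 CPM over these bins. Immediate early genes stood at 712, 1496, 2098, 3446, 6668 and 7695 CPM. Both lists were higher in each bin than in the one before it, and nuclei with 1 UMI, which the rule leaves out, already lay above those with 0.

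The chemokine list differed in shape, at 494, 552, 498, 689, 2025 and 3275 CPM, with the high values in the last 2 bins. Nuclei with 10 or more UMIs had 10.9 times the heat shock and metallothionein level of nuclei with 0, 4.11 times the hyaluronan level, 3.09 times the interleukin 6 signalling level and 2.97 times the prostaglandin and protease level. Nfkb1 stood at 6639 CPM in those 27 nuclei and 582 CPM in nuclei with 0 UMIs, Birc3 at 2078 and 123 CPM, Icam1 at 1162 and 64.7 CPM, Ccl2 at 792 and 7.71 CPM and Il1r1 at 1655 and 302 CPM.

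The fibroblast lists were lower at the top of this order, after higher values at 1 and 2 UMIs. The 9 fibroblast genes of the rule stood at 8314, 10864, 8569, 7843, 7764 and 5600 CPM over the bins. The resting list stood at 5243, 6728, 6056, 4620, 3806 and 3804 CPM. Abca8b stood at 52.8 CPM in the top bin, on 3 UMIs, and 257 CPM in nuclei with 0. The list genes Cd34 (423 against 298 CPM) and Gsn (1479 against 1247 CPM) were higher in the top bin. The activation list had no steady order, at 7478, 9274, 10595, 4713, 11493 and 8400 CPM over the bins. Within it Postn stood at 158 CPM in the top bin and 583 CPM in nuclei with 0 UMIs, Cilp at 123 and 450 CPM, and Thbs1 at 1831 and 63.0 CPM. Mural markers stood at 1471, 600.2, 296, 1211, 350 and 176 CPM over the bins, so the nuclei with 3 or 4 UMIs stood apart from their neighbours. Epicardial markers stood at 79.4, 125, 0, 279, 0 and 0 CPM, and the bin with 3 or 4 UMIs held all 15 epicardial UMIs of the inflammatory fibroblasts of cKO 2. Macrophage markers stood at 88.0 CPM in the top bin and 379 CPM in nuclei with 0 UMIs, and neutrophil markers gave no UMI in the top bin. These values come from 1 library and carry no test.

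**Figure D5:**
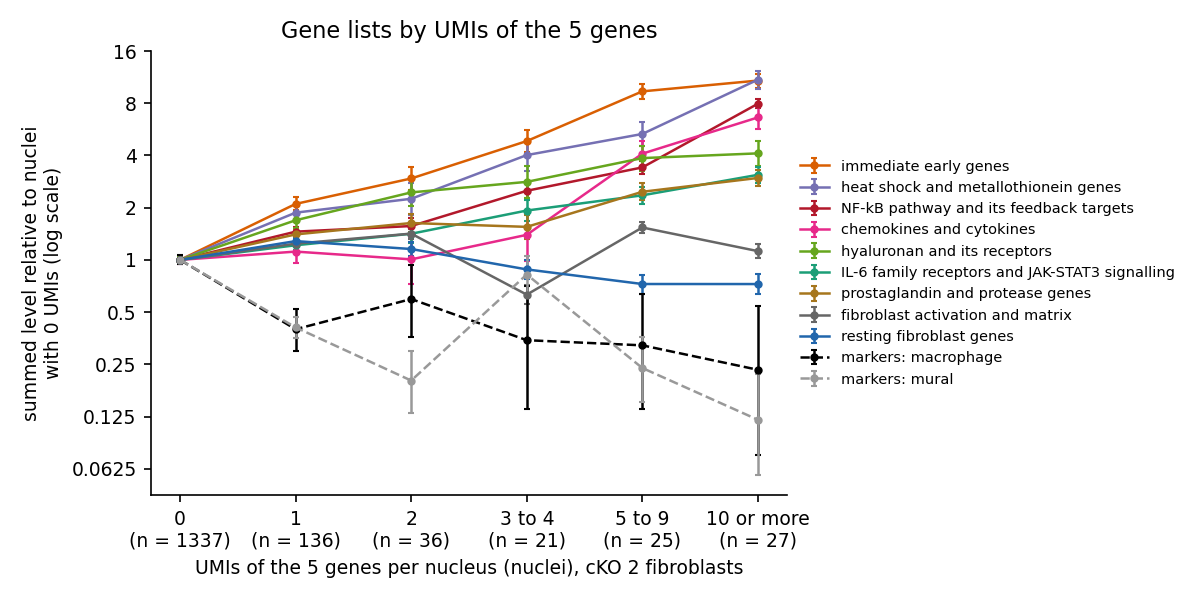
Summed CPM of gene lists in cKO 2 fibroblasts relative to nuclei without UMIs of the 5 genes (y axis, log scale), by UMIs of the 5 genes per nucleus (x axis, number of nuclei in brackets), with exact Poisson intervals that cover counting error only. Immediate early, metallothionein and NF-kB lists reach 10.8, 10.9 and 7.95 times the level of nuclei with 0 UMIs, while resting genes and macrophage and mural markers (dashed) lie under 1 in the last bin.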

How the data were processed

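The deposited files held UMI counts per gene and nucleus for 4 libraries, on the mm10 build, which the submitters' processing notes name. No aligner or counter is named there. The counts were used as the authors deposited them, with 44628 genes. The inflammatory fibroblasts, the gene lists and the tests were chosen with earlier results of these data known.

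UMI counts were summed per library and set of nuclei. Inflammatory fibroblasts were compared with the other fibroblasts of the same library, and all fibroblasts of cKO with those of control libraries, with edgeR 4.0.16 (R 4.3.3; TMM scaling, filterByExpr, quasi-likelihood test, Benjamini-Hochberg adjustment over all genes tested, threshold 0.05). Genes that the rule uses were left out of the first comparison, and of them only the 5 inflammatory genes were kept in the second. The replicate was the library, a pool of 2 hearts, so p-values of the second comparison measure the spread between pools. In the first comparison the library was a block with 1 residual degree of freedom. Its p-values rest on a spread shared over all genes and not on a spread between pools measured for each gene. Inflammatory fibroblasts were not tested between genotypes, since the control libraries held under 10. CPM values are UMIs per 1000000 of the summed totals without TMM factors, and ratios within 1 library carry exact 95% counting intervals. Shares carry Clopper-Pearson intervals. Values on the log2 scale are fold changes of the fits.

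Named genes were the 12 largest rises with at least 20 UMIs over the inflammatory fibroblasts and the falls with at least 200 UMIs over the others that passed with the same direction in both libraries, then list genes that passed and abundant list genes where none did. Genes without a name in the files are given by identifier. Of all list genes 1, Ddx58, was not matched to the files by its symbol. Scrublet (scanpy 1.11.5) found no usable automatic threshold (0% to 13.1% marked), so the top 6% of scores and the deepest 0.5% of barcodes counted as likely doublets in an alternative; 0, 2, 0 and 1 inflammatory fibroblasts of cKO 1, cKO 2, control 1 and control 2 were among them. Fits were tested on simulated data. Alternatives were another scaling and tool (DESeq2 1.42.0), filters on low counts, other limits on UMIs and mitochondrial share, other sets of nuclei, blocks, and leaving out each library.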

Additional observations from a re-analysis of the deposited data

Results flagged for a closer look

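Nuclei within the UMI and mitochondrial limits that had under 2 UMIs of the fibroblast genes, under 3% cardiomyocyte UMIs and no Pecam1, Cdh5 or Csf1r UMI entered no gene test. In cKO 2, 3.82% of them (20 of 524) held at least 2 UMIs over the 5 inflammatory genes. The share was 0.725% in cKO 1 (2 of 276), against 0% in control 1 (0 of 209, which allows up to 1.75% by the exact interval) and 0.465% in control 2 (2 of 430). This was singled out because a signal appeared in nuclei outside the gene tests, above the level in both control libraries. In cKO 2, Il6 stood at 52.8 CPM in these nuclei, against 49.2 CPM in all fibroblasts. Cxcl1, Ptx3, Tnfaip6 and Has1 were lower in these nuclei than in the fibroblasts of cKO 2. The source of these UMIs was not tested.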

How the results depend on the processing

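The log2 ratio of mean shares kept its direction wherever a value could be computed. It ran from 1.49 to 3.57 when each library was left out and was 2.53 with the replicate block. At 3 or more UMIs it was 5.25, and without Tnfaip6, an alternative added after seeing the data, 4.27. At 1% mitochondrial UMIs it was 3.07, although cKO 1 then held 0 of 58 fibroblasts and lay under control 2 (1 of 130). With at least 2 of the 5 genes detected no control nucleus remained and no ratio was possible. Inflammatory against other fibroblasts, 69 genes higher and 3 lower became 34 and 0 with DESeq2, 34 higher without a filter, 148 and 20 with no replicate block, 10 lower with raw totals, and 3 higher with all 4 libraries, also added after seeing the data. Leaving out cKO 1 or cKO 2, requiring 20 inflammatory fibroblasts a library, 3 UMIs, 2 genes, 1000 UMIs or at most 1% mitochondrial UMIs left fewer than 2 libraries and gave no value, and the controls are not in this fit. All fibroblasts, cKO against control, gave 220 genes higher and 135 lower, and 145 higher with DESeq2, 18 and 7 at 1% mitochondrial UMIs, and 53 to 272 higher and 29 to 185 lower without 1 library (lowest without control 2). The replicate block gave 943 and 920. The numbers were not taken to pair the pools, since there are only 2 pairs; the differences between replicates 1 and 2 in cKO and control correlated across 12852 genes at r = 0.346. Tnfaip6 passed with the block and without cKO 1 or control 1, and Cxcl1 and Il6 did not pass with DESeq2 (adjusted p = 0.496 and 0.265). For named genes of the first comparison, 125 values kept their call and 11 lost it, with no direction changed. Mdga2 lost it 5 times. With all 4 libraries only 7532 genes were tested, and of the named genes among them 5 kept their call and 1 lost it. The cause of these shifts was not tested. The small total of 23945 UMIs in 12 inflammatory fibroblasts limits cKO 1, where 3 counts in them stand for 125 CPM.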

Other observations

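Several genes outside the lists were also higher in inflammatory than in other fibroblasts of cKO 1 and cKO 2; they are named after their values were seen. Itga5, the fibronectin receptor subunit, stood in cKO 1 at 835 against 262 CPM and in cKO 2 at 1128 against 181 CPM (log2 fold change 2.12, SE 0.45, edgeR adjusted p = 0.00107). Kdm6b, a histone demethylase gene, stood in cKO 1 at 209 against 58.8 CPM and in cKO 2 at 718 against 66.6 CPM (2.83, adjusted p = 0.000153). Hk2, a hexokinase gene, stood in cKO 1 at 209 against 54.9 CPM and in cKO 2 at 365 against 39.3 CPM (2.72, adjusted p = 0.00107). Gem, a small GTPase gene, stood in cKO 1 at 167 against 19.1 CPM and in cKO 2 at 142 against 19.5 CPM (2.92, adjusted p = 0.000647). All 4 were higher in both libraries, and none passed between the genotypes over all fibroblasts.

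Abi1, an actin regulator gene, gave 841 UMIs in the 109 inflammatory fibroblasts of cKO 2, or 3228 CPM against 297 CPM in the others, and was detected in 88 of them, with 38 UMIs at most in 1 nucleus. In cKO 1 it stood at 209 against 240 CPM, so the libraries differed in direction although the gene passed (2.04, adjusted p = 0.00771). Gm56730, an unnamed gene model, stood in cKO 2 at 3374 against 320 CPM and in cKO 1 at 626 against 143 CPM (2.78, adjusted p = 3.77e-07), and was detected in 87 of the 109 nuclei. Top2a, a marker of dividing cells, passed (2.18, adjusted p = 0.0190) with 14 UMIs in the 12 inflammatory fibroblasts of cKO 1 and 19 in the 109 of cKO 2. Ereg gave 36 UMIs in 13 inflammatory fibroblasts of cKO 2 and none in those of the other libraries, and was too low to be tested in this comparison.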
